A study of Mus musculus with 20 samples.

Results

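Thyroid hormone handling was examined through 6 genes among the 26159 genes named on the arrays: the plasma carriers Serpina7 and Ttr, the cytosolic hormone-binding protein Crym, the deiodinase Dio1 and the nuclear receptors Thra and Thrb. The set was put together because Serpina7 and Ttr were much higher after the diet labelled CRD, so the CRD differences of those 2 genes are given as a description, with no test. For each gene the probe with the highest mean log2 intensity over the 20 arrays was used; Serpina7 had 2 probes and the other 5 genes had 1 each. Crym fell below the filter on dim genes and is also given as values only, apart from a fit without the filter. This left 5 of the 6 genes in the main fit.

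The RNA came from pancreatic islets of male B6.V-Lep ob/ob mice, an obese strain without working leptin. All mice were fed the diet labelled HFD, and the labels spell out neither HFD nor CRD. The 4 groups held 5 mice each, with 1 array per mouse: 18 weeks of HFD followed by 2 days of CRD, 18 weeks of HFD, 39 weeks of HFD followed by 2 days of CRD, and 39 weeks of HFD. Age and weeks of HFD carry the same number in the labels and cannot be told apart; below, age means both. Islets were freed with collagenase and picked by hand, so each array reports a mixture of islet cells and whatever tissue came along.

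Thyroid hormone circulates bound to a few liver-derived proteins. Serpina7 encodes thyroxine-binding globulin, a clade A serpin without inhibitor activity that binds thyroxine with high affinity, and Ttr encodes transthyretin, which carries thyroxine and, together with retinol-binding protein, retinol, and is also made by islet cells. Inside cells, deiodinases are selenoenzymes that remove iodine from the hormone, type 1 both activating and inactivating it; crystallin mu (Crym) binds triiodothyronine in the cytosol; and the receptors TR alpha and TR beta, encoded by Thra and Thrb, bind DNA with retinoid X receptors and exchange corepressors for coactivators when the hormone binds.

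Promoter sequence is shown for the gene with the largest difference, Serpina7, and for the receptor gene Thrb, because in both a window from 250 bases before to 50 bases after a RefSeq start site held at least 1 of the 4 motifs searched. RefSeq (GRCm38.p6) sequences were at hand for 3 of the 6 genes, Serpina7, Thrb and Dio1. Capitals mark the motif matches, and the strand in brackets is that of the gene.
Serpina7, chrX:139085187-139085486 (-): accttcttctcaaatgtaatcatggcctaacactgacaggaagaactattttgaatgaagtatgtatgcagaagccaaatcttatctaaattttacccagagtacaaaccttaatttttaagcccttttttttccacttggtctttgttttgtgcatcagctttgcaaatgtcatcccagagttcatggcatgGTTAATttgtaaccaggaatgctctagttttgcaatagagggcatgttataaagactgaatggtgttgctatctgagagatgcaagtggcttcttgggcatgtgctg
Thrb, chr14:17660710-17661009 (+): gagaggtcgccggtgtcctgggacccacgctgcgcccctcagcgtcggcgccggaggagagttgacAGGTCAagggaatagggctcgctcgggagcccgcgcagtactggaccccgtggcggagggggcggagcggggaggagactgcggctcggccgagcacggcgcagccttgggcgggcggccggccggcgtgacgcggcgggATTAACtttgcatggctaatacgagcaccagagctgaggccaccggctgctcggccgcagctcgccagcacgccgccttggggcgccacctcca
Both strands were searched for GTTAAT, the half-site of the liver-enriched factor HNF1, for AGGTCA, the half-site of nuclear receptors, for the E-box CACGTG and for the D-box TTATGTAA. The Serpina7 window held GTTAAT, its first base at position -57 relative to the start site. The Thrb window held GTTAAT on the opposite strand (ATTAAC) at -44 and AGGTCA at -184. Among all 32851 RefSeq promoter windows of this length, 7.10% held GTTAAT, 16.3% AGGTCA, 7.15% CACGTG and 0.938% TTATGTAA. Windows at a second RefSeq start site, not printed, held the same GTTAAT of Serpina7 at -74 and CACGTG of Thrb at -193. The Dio1 window held none of these letters. A match describes the letters in the window and is not evidence of a bound site.

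The islet hormones were strongly present, with Ins2 at or near the highest value of the table in every group and Gcg at group means between 14.32 and 15.22 (log2 intensity). Clustering on 1315 chemosensory receptor genes, cut at a fixed number of 3, divided the arrays into sets called A, B and C here. No label records these sets. At 18 weeks the sets lay almost along the diet: set A held 1 CRD and 4 HFD arrays, and set B held 4 CRD and 1 HFD array. At 39 weeks set A held 4 CRD and 3 HFD arrays, set B 1 HFD array, and set C 1 array of each diet. A second fit, called the blocked fit, took the array set as a block, and its values stand beside those of the first fit for the 6 genes and for many of the other genes and counts named. Differences within sets are given as well. Values below are log2 intensities with the standard deviation (SD, n = 5 mice) and log2 differences with their standard error (SE), from limma with Benjamini-Hochberg adjustment over the 18311 genes that passed the filter and a threshold of 0.05.

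Among the 3 members that the choice of the set did not use and that passed the filter, Dio1 rose and Thra fell after CRD at 18 weeks, and Thra and Thrb fell at 39 weeks. Over all genes tested, 24.9% passed the threshold after CRD at 18 weeks, 17% upward and 7.89% downward. At 39 weeks 8.34% passed, 3.5% upward and 4.84% downward. At an unadjusted p below 0.05 limma had 7390 of the 18311 genes at 18 weeks and 3761 at 39 weeks. Unadjusted counts of listed genes below are to be read beside these. The 18-week count of 4565 genes became 8400 without replicate 2 of the 18-week HFD group and 2614 without its replicate 4. Non-overlapping groups were found for 9.6% of genes at 18 weeks (6.6% higher and 3% lower after CRD) and for 12.7% at 39 weeks (3.88% higher and 8.82% lower after CRD). Of the 6 genes, Serpina7, Ttr, Thra and Crym had no overlap at 18 weeks, and Serpina7, Ttr, Thra and Thrb had none at 39 weeks. For Serpina7 and Ttr nothing is read from this, since they were chosen for it. Crym did not pass the filter, so the shares above do not cover dim genes like it.

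**Figure D1:**
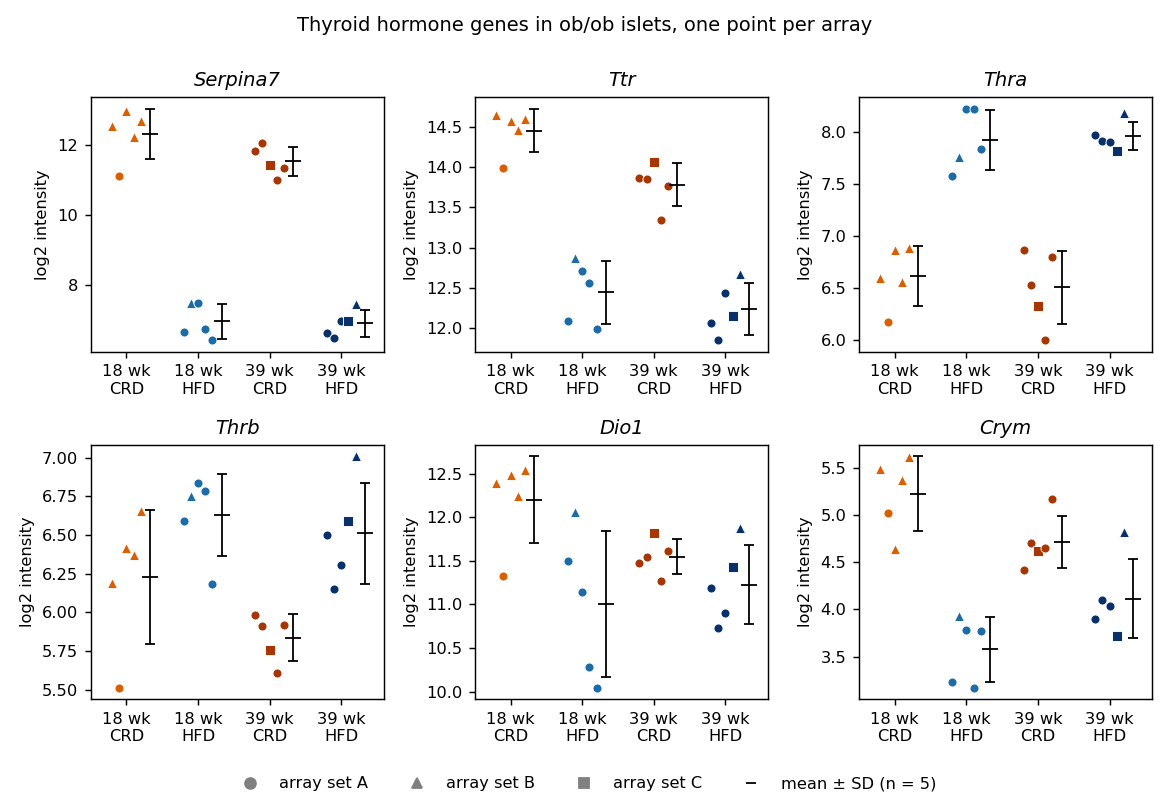
Log2 intensity (y axis) of the 6 genes on each of the 20 arrays, by group (x axis); point shapes give the array set and the bars give the mean ± SD (n = 5). Serpina7 and Ttr lie higher and Thra lies lower in both CRD groups with no overlap with HFD, while the Dio1 groups overlap at both ages.

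Serpina7 was the member with the largest difference. After 2 days of CRD at 18 weeks its log2 intensity was 12.55, 11.13, 12.99, 12.23 and 12.70 in the 5 mice, against 6.65, 7.48, 7.47, 6.74 and 6.42 on HFD. At 39 weeks it was 11.83, 12.06, 11.44, 10.99 and 11.35 after CRD, against 6.62, 6.48, 6.96, 6.97 and 7.46 on HFD. The lowest CRD array lay more than 3 log2 units above the highest HFD array of its age. The group means were 12.32 ± 0.72 after CRD and 6.95 ± 0.49 on HFD at 18 weeks, a difference of 5.36 ± 0.31 (SE) or 41.2-fold. At 39 weeks they were 11.53 ± 0.42 after CRD and 6.90 ± 0.38 on HFD, a difference of 4.63 ± 0.31 or 24.8-fold. In islet RNA as a whole, more cells of an expressing type and more RNA per cell cannot be told apart.

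The second Serpina7 probe moved the same way. Its mean was 10.60 ± 0.80 after CRD and 6.56 ± 0.64 on HFD at 18 weeks, and 9.59 ± 0.45 after CRD and 5.77 ± 0.35 on HFD at 39 weeks. Its differences, 4.04 and 3.81 on the log2 scale, were smaller than those of the probe used, and its CRD and HFD groups did not overlap either. Within array sets the difference of the probe used was 4.31 in set A (1 CRD and 4 HFD arrays) and 5.13 in set B (4 CRD and 1 HFD array) at 18 weeks, and 4.87 in set A and 4.47 in set C at 39 weeks. The lowest CRD array at 18 weeks, replicate 2, was also the only array of its group in set A.

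**Figure D2:**
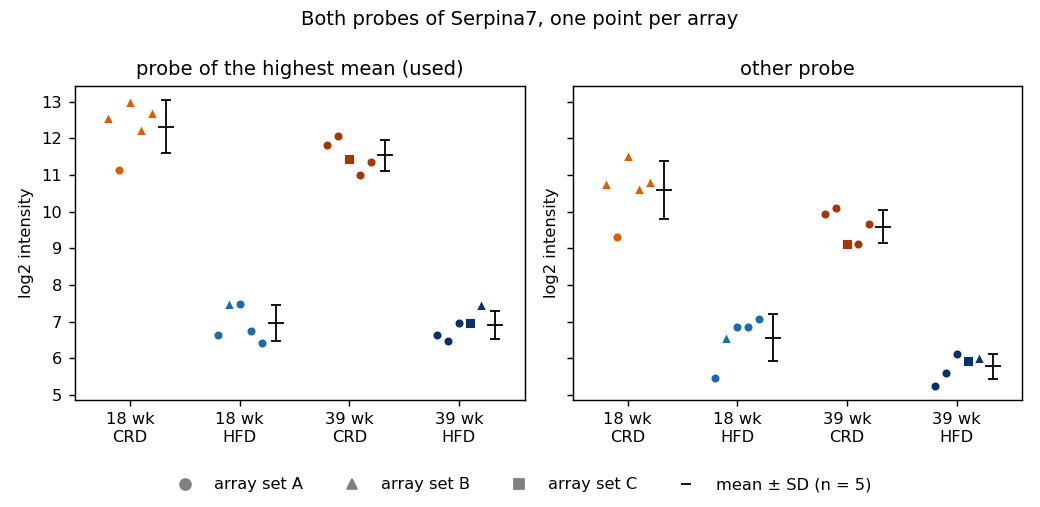
Log2 intensity (y axis) of each of the 2 Serpina7 probes on the 20 arrays, by group (x axis), with point shapes for the array set and bars for the mean ± SD (n = 5). On both probes every CRD array lies above every HFD array, with mean differences of 5.36 and 4.63 on the probe used and 4.04 and 3.81 on the other.

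Ttr was 4.03 times as high after CRD as on HFD at 18 weeks and 2.92 times as high at 39 weeks. At 18 weeks its log2 intensity was 14.65, 13.98, 14.57, 14.46 and 14.60 after CRD, against 12.08, 12.87, 12.71, 12.56 and 11.99 on HFD. At 39 weeks Ttr had 13.87, 13.85, 14.06, 13.34 and 13.77 after CRD, against 12.06, 11.85, 12.43, 12.15 and 12.67 on HFD. The groups did not overlap at either age. The means were 14.45 ± 0.27 after CRD and 12.44 ± 0.39 on HFD at 18 weeks, and 13.78 ± 0.27 after CRD and 12.23 ± 0.32 on HFD at 39 weeks. The difference was 2.01 ± 0.21 at 18 weeks and 1.55 ± 0.21 at 39 weeks. Within array sets it ranged from 1.59 to 1.92, with 1.65 in set A and 1.70 in set B at 18 weeks and 1.59 in set A and 1.92 in set C at 39 weeks.

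Since both carriers are best known as liver products and the islets were picked out of digested pancreas, markers of other cells were set beside them. Of 8 hepatocyte markers on the arrays 2 passed the filter, and neither passed the threshold in a CRD comparison (0 and 1 at an unadjusted p below 0.05 at 18 and 39 weeks). Alb, the albumin gene, had group means between 0.87 and 1.35 and Apoa1 between 0.60 and 1.47, near the lowest value of the table, 0.55. The 2 that passed the filter were Apoa2, with means of 11.14 to 12.31, and the fibrinogen gene Fgb, with 6.42 to 7.15. Fgb averaged 7.15 after CRD and 6.42 on HFD at 39 weeks. Apoh, an apolipoprotein gene below the filter and so not tested, had 1.85 to 4.62 after CRD and 0.63 to 0.85 on HFD at 18 weeks, with no overlap, and means of 1.07 after CRD and 0.89 on HFD at 39 weeks. Fga averaged 3.62 after CRD and 2.19 on HFD at 39 weeks, with overlap. The group means of Ahsg lay between 1.57 and 2.06 and those of Cyp2e1 between 3.94 and 4.50. The part of hepatocyte RNA in the Serpina7 and Ttr values was not tested. The summed level of the 8 markers ranged over 10.71 to 12.40 in CRD mice and 10.68 to 12.95 in HFD mice at 18 weeks, and over 11.76 to 13.04 in CRD mice and 11.02 to 12.64 in HFD mice at 39 weeks. Here and below, sums were taken over linear intensities before the log, so the brightest markers weigh most. Apoa2, at 10.59 to 12.37 in CRD mice at 18 weeks, made up most of this sum.

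Acinar markers averaged higher after CRD at 18 weeks and lower at 39 weeks, and their summed ranges overlapped between the diets at both ages. Their summed level over 6 genes was 11.99 to 14.90 after CRD and 8.88 to 14.81 on HFD at 18 weeks, with 5 of 6 markers past the threshold upward, and none past it in the blocked fit (5 of 6 at an unadjusted p below 0.05). At 39 weeks it was 12.30 to 14.88 after CRD and 14.84 to 15.69 on HFD, with 1 of 6 past the threshold, downward (6 of 6 at an unadjusted p below 0.05), and 2 of 6 in the blocked fit, also downward. Alpha-cell markers, of interest because alpha cells make transthyretin, summed to 13.45 to 14.88 after CRD and 14.25 to 15.38 on HFD at 18 weeks, and to 13.92 to 14.90 after CRD and 14.93 to 15.68 on HFD at 39 weeks. The ranges overlapped at 18 weeks, and at 39 weeks the CRD range lay wholly below the HFD range. Gcg, at 13.44 to 14.87 after CRD at 18 weeks, made up nearly all of this sum. Irx1, Irx2 and Pou3f4 were dim beside it and overlapped between the diets at both ages. No alpha-cell marker of the 4 tested passed the threshold at 18 weeks in limma (0 at an unadjusted p below 0.05), and Gcg fell at 39 weeks (-0.90 ± 0.27, adjusted p = 0.040). Blocking by array set left 2 of 4 alpha-cell markers lower at 18 weeks past the threshold. Of 7 beta-cell markers 5 fell at 18 weeks and 3 at 39 weeks, and in the blocked fit 4 and 3. Over all genes tested 7.89% fell at 18 weeks and 4.84% at 39 weeks, and in the blocked fit 5.97% and 7.79%. Iapp lay higher after CRD at 18 weeks (0.29 ± 0.14, unadjusted p = 0.0452 in limma), not past the threshold. Ins2 was at or near the highest value of the table and could hardly show a rise. The part of acinar, alpha and beta cells in the Serpina7 and Ttr values was not tested.

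Crym was dim, with a mean over all arrays below the filter. At 18 weeks its log2 intensity was 5.49, 5.02, 4.64, 5.37 and 5.61 after CRD, against 3.23, 3.93, 3.78, 3.17 and 3.77 on HFD, with no overlap. At 39 weeks it was 4.42, 4.70, 4.62, 4.65 and 5.17 after CRD, against 3.89, 4.10, 4.04, 3.72 and 4.82 on HFD, where the highest HFD mouse lay among the CRD mice. The means were 5.23 ± 0.40 after CRD and 3.58 ± 0.35 on HFD at 18 weeks, and 4.71 ± 0.28 after CRD and 4.11 ± 0.42 on HFD at 39 weeks. The difference was 1.65 ± 0.23 at 18 weeks and 0.60 ± 0.23 at 39 weeks. Without the filter, where Crym entered the fit, limma gave an adjusted p of 8.94e-05 at 18 weeks and 0.164 at 39 weeks. In that fit 19% of all genes passed the threshold at 18 weeks and 6.19% at 39 weeks. An offset of 16 added to every intensity before the log, which shrinks differences among dim probes, brought the 18-week difference to 0.94. The difference within sets at 18 weeks was 1.53 (set A) and 1.35 (set B), and at 39 weeks 0.72 (set A) and 0.91 (set C).

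Dio1 rose after CRD at 18 weeks in the fit on the 4 groups. At 18 weeks its log2 intensity was 12.40, 11.33, 12.49, 12.25 and 12.55 after CRD, against 11.50, 12.06, 11.14, 10.28 and 10.05 on HFD. At 39 weeks Dio1 had 11.48, 11.55, 11.82, 11.27 and 11.61 after CRD, against 11.19, 10.73, 10.90, 11.43 and 11.88 on HFD. The groups overlapped at both ages. The 18-week means were 12.20 ± 0.50 after CRD and 11.01 ± 0.84 on HFD. The difference was 1.20 ± 0.33 at 18 weeks (2.29-fold, adjusted p = 0.0124), and at 39 weeks it was 0.32 ± 0.33 (adjusted p = 0.657).

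The Dio1 call at 18 weeks did not hold with the array set taken into account. In the blocked fit the difference was 0.53 ± 0.25 (adjusted p = 0.196), and on the arrays of set A alone it was 0.59 (adjusted p = 0.682). Within set B it was 0.36. At 39 weeks the blocked fit gave 0.54 ± 0.22 (adjusted p = 0.101), with 0.54 within set A and 0.39 within set C. The only CRD array of set A had 11.33, the lowest of its group, and the only HFD array of set B had 12.06, the highest of its group. The other 4 CRD arrays lay between 12.25 and 12.55.

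Thra fell after CRD at both ages. At 18 weeks its log2 intensity was 6.59, 6.18, 6.87, 6.56 and 6.88 after CRD, against 7.57, 7.76, 8.22, 8.22 and 7.83 on HFD. At 39 weeks Thra had 6.86, 6.53, 6.33, 6.0 and 6.80 after CRD, against 7.96, 7.91, 7.90, 7.82 and 8.18 on HFD. No CRD array reached the lowest HFD array of its age. The difference was -1.30 ± 0.19 (adjusted p = 8.29e-05) at 18 weeks and -1.45 ± 0.19 (adjusted p = 4.34e-05) at 39 weeks, which makes the level 2.47 and 2.73 times as high on HFD as after CRD.

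The Thra fall kept its direction and passed the threshold in every alternative fit that was run. The blocked fit gave -1.42 at 18 weeks (adjusted p = 0.000122) and -1.41 at 39 weeks (adjusted p = 2.05e-05). The difference within sets at 18 weeks was -1.78 (set A) and -1.03 (set B), and at 39 weeks -1.38 (set A) and -1.48 (set C). Leaving out 1 array at a time gave differences from -1.39 to -1.19 at 18 weeks and from -1.54 to -1.32 at 39 weeks. Thra gives rise to a hormone-binding receptor and to a splice form that does not bind the hormone, and the sources used here do not say which of them the probe reports.

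Thrb showed smaller differences than Thra. At 18 weeks its log2 intensity was 6.19, 5.51, 6.41, 6.37 and 6.65 after CRD, against 6.59, 6.75, 6.84, 6.79 and 6.18 on HFD, and the groups overlapped. At 39 weeks it was 5.98, 5.91, 5.75, 5.61 and 5.92 after CRD, against 6.50, 6.15, 6.31, 6.59 and 7.01 on HFD, with no overlap. The difference was -0.40 ± 0.21 at 18 weeks (adjusted p = 0.149) and -0.68 ± 0.21 at 39 weeks (adjusted p = 0.0461).

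The Thrb calls changed with the fit. In the blocked fit Thrb passed it at both ages, at -0.74 ± 0.19 (adjusted p = 0.0123) at 18 weeks and -0.57 ± 0.16 (adjusted p = 0.023) at 39 weeks. The 39-week call was lost in 14 of 20 fits that left out 1 array, with adjusted p between 0.0184 and 0.135, and on the arrays of set A alone (-0.47, adjusted p = 0.313). Split by set, Thrb differed by -1.09 (set A) and -0.34 (set B) at 18 weeks, and by -0.47 (set A) and -0.84 (set C) at 39 weeks.

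Markers of macrophages and endothelial cells were set beside the 2 receptors. The summed level of 5 macrophage markers was 11.34 to 12.27 after CRD and 11.88 to 13.01 on HFD at 18 weeks, and 11.32 to 11.73 after CRD and 12.04 to 12.80 on HFD at 39 weeks. That of 4 endothelial markers was 12.50 to 12.80 after CRD and 12.80 to 13.39 on HFD at 18 weeks, and 12.37 to 12.94 after CRD and 12.75 to 13.40 on HFD at 39 weeks. C1qa and Plvap, the markers of highest mean in each list, weighed most in these sums. The macrophage ranges were apart at 39 weeks, where 1 of 3 tested markers fell, and the other pairs of ranges overlapped or touched. At 18 weeks Cd68, 1 of the 3 macrophage markers tested, and Cdh5, 1 of the 4 endothelial markers, passed the threshold upward (adjusted p = 0.0461 and 0.0382), and neither did in the blocked fit (adjusted p = 0.497 and 0.592). In that fit the macrophage marker C1qa fell at 18 weeks (-1.23, adjusted p = 0.00204), and again 1 of the 3 fell at 39 weeks. The part of these cells, and of the alpha cells above, in the Thra and Thrb values was not tested.

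Each receptor gene has a REV-ERB gene, which encodes a heme-binding repressor of the circadian clock, as its neighbour. Nr1d1 overlaps Thra in the RefSeq annotation, and no protein-coding gene lies between Nr1d2 and Thrb. Nr1d1 averaged 7.63 ± 0.17 after CRD and 9.60 ± 0.19 on HFD at 18 weeks, and 8.39 ± 0.12 after CRD and 9.85 ± 0.33 on HFD at 39 weeks (differences -1.97 ± 0.17, adjusted p = 1.04e-07, and -1.46 ± 0.17, adjusted p = 7.00e-06). Nr1d2 averaged 5.61 ± 0.65 after CRD and 7.87 ± 0.63 on HFD at 18 weeks, and 5.88 ± 0.35 after CRD and 8.40 ± 0.40 on HFD at 39 weeks (differences -2.26 ± 0.31, adjusted p = 4.68e-05, and -2.53 ± 0.31, adjusted p = 2.03e-05). Both neighbours therefore fell at both ages, with no overlap between the diets.

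**Figure D3:**
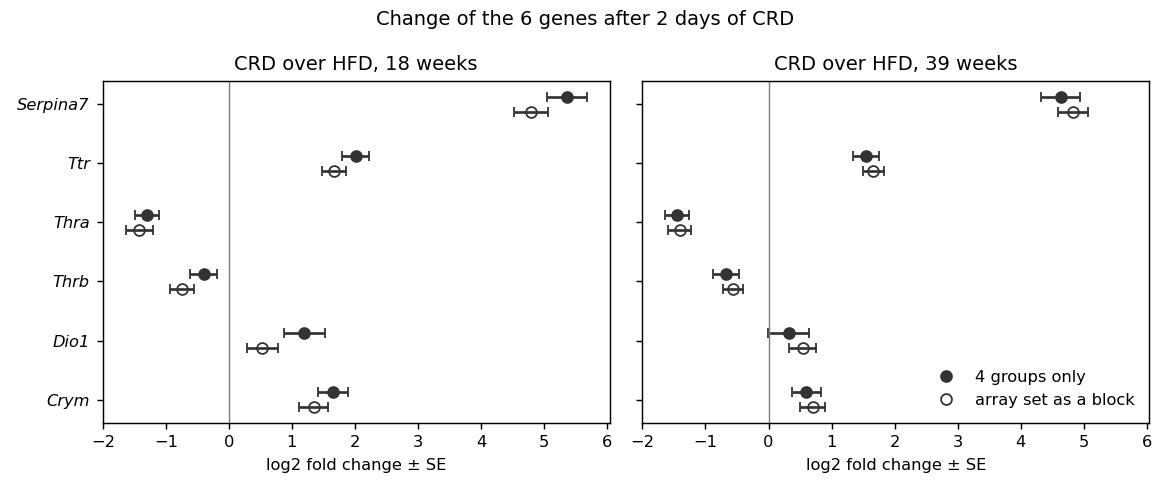
Log2 fold change ± SE of the 6 genes, CRD over HFD (x axis), at 18 and at 39 weeks, from the fit on the 4 groups (filled) and from the blocked fit, with array set as a block (open). Serpina7 and Ttr are described only and Crym is below the filter; the Dio1 value at 18 weeks drops to 0.53 with the block, while Thra stays between -1.45 and -1.30 without it and near -1.41 with it.

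Comparing 39 with 18 weeks, no member passed the threshold on either diet. On HFD 0.0928% of genes passed (17 genes) and after CRD 0.0273% (5 genes), against 1209 and 6510 genes at an unadjusted p below 0.05. The 17 became 283 without replicate 1 of the 18-week HFD group and 0 without its replicate 4. Among the 17 were 5 of the 6 acinar markers, all higher at 39 weeks, and in the blocked fit 6 of 6 rose. The median difference of the 6 was 4.75, so the 2 HFD groups differed strongly in acinar RNA. Its part in the age differences of the members was not tested. On HFD the differences of the 5 tested members ran from -0.21 ± 0.21 (Ttr, adjusted p = 0.864) to 0.22 ± 0.33 (Dio1, adjusted p = 0.891), with -0.05 for Serpina7, 0.04 for Thra and -0.12 for Thrb. After CRD all 5 means were lower at 39 weeks, none past the threshold: the difference was -0.78 ± 0.31 for Serpina7 (adjusted p = 0.109), -0.67 ± 0.21 for Ttr (adjusted p = 0.10), -0.66 ± 0.33 for Dio1 (adjusted p = 0.149), -0.39 ± 0.21 for Thrb (adjusted p = 0.164) and -0.11 ± 0.19 for Thra (adjusted p = 0.654). The median of all genes tested in that comparison was -0.18. The Serpina7 values here are those of the probe used. Its second probe, not tested by itself, differed between the ages by -0.78 on HFD and by -1.01 after CRD.

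The age difference after CRD changed with the array sets and with 1 array. Without replicate 2 of the 18-week CRD group, the only set A array of that group, 4 members passed the threshold downward: Serpina7 (-1.08, adjusted p = 0.0120), Ttr (-0.79, adjusted p = 0.0147), Thrb (-0.57, adjusted p = 0.030) and Dio1 (-0.87, adjusted p = 0.0426). In that fit 35.3% of all genes passed, 6466 of 18311. Blocking by array set left 0 genes past the threshold (305 at an unadjusted p below 0.05), and the differences were -0.04 for Serpina7, -0.25 for Ttr, 0.08 for Thra, 0.04 for Thrb and 0.15 for Dio1.

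The change with CRD was not shown to differ between the ages for any member. The difference of the CRD effects, 39 minus 18 weeks, was -0.73 ± 0.44 for Serpina7 (adjusted p = 0.253), -0.46 ± 0.30 for Ttr (adjusted p = 0.271), -0.15 ± 0.27 for Thra (adjusted p = 0.697), -0.28 ± 0.29 for Thrb (adjusted p = 0.482) and -0.88 ± 0.46 for Dio1 (adjusted p = 0.225). It was -1.05 ± 0.33 for Crym, as a value only. On the second Serpina7 probe the CRD differences lay closer together, at 4.04 at 18 weeks and 3.81 at 39 weeks. Over all genes limma called 0, with 4043 at an unadjusted p below 0.05 and a median of -0.16. Without replicate 2 of the 18-week HFD group, the only set B array there, 3876 genes passed, while no member did in any of the 20 fits that left out 1 array (lowest adjusted p = 0.0529, for Dio1). In the blocked fit this difference was 0.04 for Serpina7, -0.00 for Ttr, 0.01 for Thra, 0.17 for Thrb and 0.01 for Dio1, so that its sign turned for Serpina7, Thra, Thrb and Dio1, and it was -0.65 for Crym.

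Ordered by group mean, Serpina7, Ttr, Dio1 and Crym were highest after CRD at 18 weeks and next highest after CRD at 39 weeks. Set B held 4 CRD arrays at 18 weeks and 0 at 39 weeks, so age and array set are mixed in this order. Within set A (4 CRD arrays at 39 weeks, 1 at 18 weeks) the age difference was 0.43 for Serpina7 and 0.15 for Dio1. It was -0.28 there for both Ttr and Crym. For Serpina7 and Ttr the 2 CRD groups lay far above both HFD groups, and neither the CRD groups nor the HFD groups differed between the ages past the threshold. For Dio1 the 39-week CRD mean was 11.55 ± 0.20, the 39-week HFD mean 11.23 ± 0.45 and the 18-week HFD mean 11.01 ± 0.84. These means lay within the range of the 18-week HFD arrays, 10.05 to 12.06. For Thra both CRD means lay below both HFD means, with 6.62 ± 0.29 and 6.51 ± 0.35 after CRD at 18 and 39 weeks against 7.92 ± 0.29 and 7.95 ± 0.14 on HFD at those ages. Thrb was lowest after CRD at 39 weeks, at 5.83 ± 0.15, followed by 6.23 ± 0.43 after CRD at 18 weeks. Its HFD means, 6.51 ± 0.33 at 39 weeks and 6.63 ± 0.27 at 18 weeks, lay within their spread. The 18-week CRD mean lay above the highest 39-week CRD array, 5.98. The 39-week CRD mean lay within the wider range of the 18-week CRD arrays, 5.51 to 6.65.

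The other genes of the pathway were read from lists of 76 genes, of which 63 had a named probe and 41 passed the filter. At 18 weeks 4 of the 41 rose and 6 fell after CRD, which is 24.4% of them beside 24.9% of all genes tested. At 39 weeks 3 rose and 9 fell, 29.3% beside 8.34%. In the blocked fit 3 rose and 9 fell at each age, beside 12.9% of all genes at 18 weeks (6.89% upward and 5.97% downward) and 15.3% at 39 weeks (7.49% upward and 7.79% downward). Without replicate 2 of the 18-week HFD group the 18-week count was 18 in place of 10. At an unadjusted p below 0.05 limma had 17 of the 41 at 18 weeks and 16 at 39 weeks, beside 7390 and 3761 of 18311 genes. In the comparisons between the ages 0 of the 41 passed in limma, with 6 on HFD and 14 after CRD at an unadjusted p below 0.05. The lists were chosen with earlier results of these arrays known.

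Of 7 hormone transporters, none passed at 18 weeks in limma (1 at an unadjusted p below 0.05) and 2 fell at 39 weeks. The 2 were Slc7a5 (-1.04 ± 0.23, adjusted p = 0.00713) and Slc3a2 (-0.82 ± 0.24, adjusted p = 0.0352), the light and heavy chains of an amino acid exchanger that also carries thyroid hormone. Slc7a5 averaged 8.79 ± 0.42 after CRD and 9.82 ± 0.29 on HFD at 39 weeks, with no overlap. At 18 weeks their differences were -0.38 (adjusted p = 0.221) and -0.25 (adjusted p = 0.433), and in the blocked fit Slc7a5 passed there too (-0.74, adjusted p = 0.0304). The median of the 7 was -0.36 at 18 weeks and 0.06 at 39 weeks, beside 0.04 and 0.02 over all genes. Of all genes tested, 7.89% fell at 18 weeks and 4.84% at 39 weeks in the first fit. At an unadjusted p below 0.05 limma had 7390 of the 18311 genes at 18 weeks and 3761 at 39 weeks.

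Of 5 genes for another deiodinase and for selenoprotein synthesis, 1 fell at each age. Among all genes tested the share that fell was 7.89% at 18 weeks and 4.84% at 39 weeks. Sepsecs, which makes the selenocysteine carried by its tRNA, averaged 5.31 ± 0.29 after CRD and 7.23 ± 0.69 on HFD at 18 weeks, and 5.00 ± 0.23 after CRD and 6.57 ± 0.21 on HFD at 39 weeks. It fell by 1.92 ± 0.25 at 18 weeks (adjusted p = 2.51e-05) and by 1.57 ± 0.25 at 39 weeks (adjusted p = 0.000353), and the array set block gave -1.91 and -1.57. Dio2, the activating type 2 deiodinase, named after its values were seen, did not pass, with -0.55 ± 0.29 at 18 weeks (adjusted p = 0.160) and 0.46 ± 0.29 at 39 weeks (adjusted p = 0.418). The other 3 genes did not pass at either age.

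Of 12 receptor partners and coregulators, 2 fell at 18 weeks and 3 fell at 39 weeks, and none rose in limma (2 and 0 rising at an unadjusted p below 0.05 at 18 and 39 weeks). Ncoa1, a coactivator of nuclear receptors, fell at both, averaging 9.38 ± 0.20 after CRD and 10.44 ± 0.26 on HFD at 18 weeks and 9.29 ± 0.19 after CRD and 10.30 ± 0.16 on HFD at 39 weeks (differences -1.06 ± 0.16, adjusted p = 0.000111, and -1.01 ± 0.16, adjusted p = 0.000306). Tbl1x, a subunit of the corepressor complex, fell at 18 weeks (-0.64 ± 0.20, adjusted p = 0.0259) and did not pass at 39 weeks (-0.35, adjusted p = 0.342). The coactivator Ncoa3 (-1.02 ± 0.24, adjusted p = 0.00887) and the acetyltransferase gene Crebbp (-1.06 ± 0.27, adjusted p = 0.0160) fell at 39 weeks, with -0.33 (adjusted p = 0.292) and -0.64 (adjusted p = 0.0794) at 18 weeks. The median of the 12 was -0.41 at 18 weeks and -0.37 at 39 weeks, beside 0.04 and 0.02 over all genes. In the first fit 7.89% of all genes fell and 17% rose at 18 weeks, and 4.84% fell and 3.5% rose at 39 weeks. With so small a share, none rising at 39 weeks says little about these genes. In the blocked fit 5 fell at 18 weeks and 3 at 39 weeks, beside 5.97% and 7.79% of all genes.

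Of 6 genes known to respond to thyroid hormone, 2 rose and 2 fell at 18 weeks, and 2 fell at 39 weeks. Klf9, a zinc-finger factor induced by the hormone, fell at both ages (-1.02 ± 0.24, adjusted p = 0.00444, and -1.07 ± 0.24, adjusted p = 0.00617), with no overlap between the diets. Gpd2, the mitochondrial glycerol-3-phosphate dehydrogenase, fell at 39 weeks, with a mean of 8.61 ± 0.19 after CRD and 10.44 ± 0.30 on HFD (-1.83 ± 0.39, adjusted p = 0.00470), and had -0.37 at 18 weeks (adjusted p = 0.477). The lipogenic genes Thrsp (1.06 ± 0.28, adjusted p = 0.00925) and Me1 (1.11 ± 0.29, adjusted p = 0.00982) rose at 18 weeks, but in the blocked fit neither passed (adjusted p = 0.127 and 0.163). Mafa, the beta-cell factor, named after its values were seen, fell at 18 weeks (-0.56 ± 0.19, adjusted p = 0.0349) and lost its call in the blocked fit (adjusted p = 0.374). These 6 genes therefore moved both ways at 18 weeks. With the block 1 of 6 fell there and 2 of 6 at 39 weeks, beside 5.97% and 7.79% of all genes. In the first fit 17% of all genes rose and 7.89% fell at 18 weeks, and 4.84% fell at 39 weeks.

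Of 7 other clade A serpins that passed the filter, out of 18 on the arrays, 2 rose at 18 weeks and 3 at 39 weeks, and none fell in limma (0 and 0 falling at an unadjusted p below 0.05 at 18 and 39 weeks). Serpina3n averaged 7.43 ± 1.41 after CRD and 3.59 ± 1.79 on HFD at 18 weeks, and 7.86 ± 2.06 after CRD and 4.63 ± 0.46 on HFD at 39 weeks (differences 3.85 ± 0.88 and 3.23 ± 0.88). Both HFD means lay below the filter cut of 4.83, so Serpina3n was tested only through its CRD arrays. Its place among the genes that rose, here and in the total of the pathway lists, is a description. Serpina10, which encodes the protein Z-dependent protease inhibitor of clotting, was bright and rose by 1.72 ± 0.35 (adjusted p = 0.00170) and 1.19 ± 0.35 (adjusted p = 0.0394). Serpina1f rose at 39 weeks (1.31 ± 0.26, adjusted p = 0.00276) and had 0.27 at 18 weeks (adjusted p = 0.431), and in the blocked fit it passed at both ages. The median of the 7 was 0.13 at 18 weeks and 0.72 at 39 weeks, beside 0.04 and 0.02 over all genes. In the first fit 17% of all genes rose and 7.89% fell at 18 weeks, and 3.5% rose and 4.84% fell at 39 weeks. With such small shares falling, none of 7 falling says little about these genes.

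Rbp4, the retinol carrier that travels with transthyretin in plasma, moved against Ttr. It averaged 10.04 ± 0.14 after CRD and 10.61 ± 0.35 on HFD at 18 weeks, and 9.89 ± 0.21 after CRD and 10.56 ± 0.22 on HFD at 39 weeks. It fell by 0.57 ± 0.18 (adjusted p = 0.0244) and 0.67 ± 0.18 (adjusted p = 0.0200). Rbp4 is also a marker of delta cells, whose hormone Sst did not pass at either age, with differences of -0.48 and -0.51. Of genes that mark the thyroid follicle, 2 passed the filter, the thyrotropin receptor gene Tshr (-0.55 and 0.13) and the iodotyrosine deiodinase gene Iyd (-0.48 and -0.00), and neither passed the threshold at either age.

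**Figure D4:**
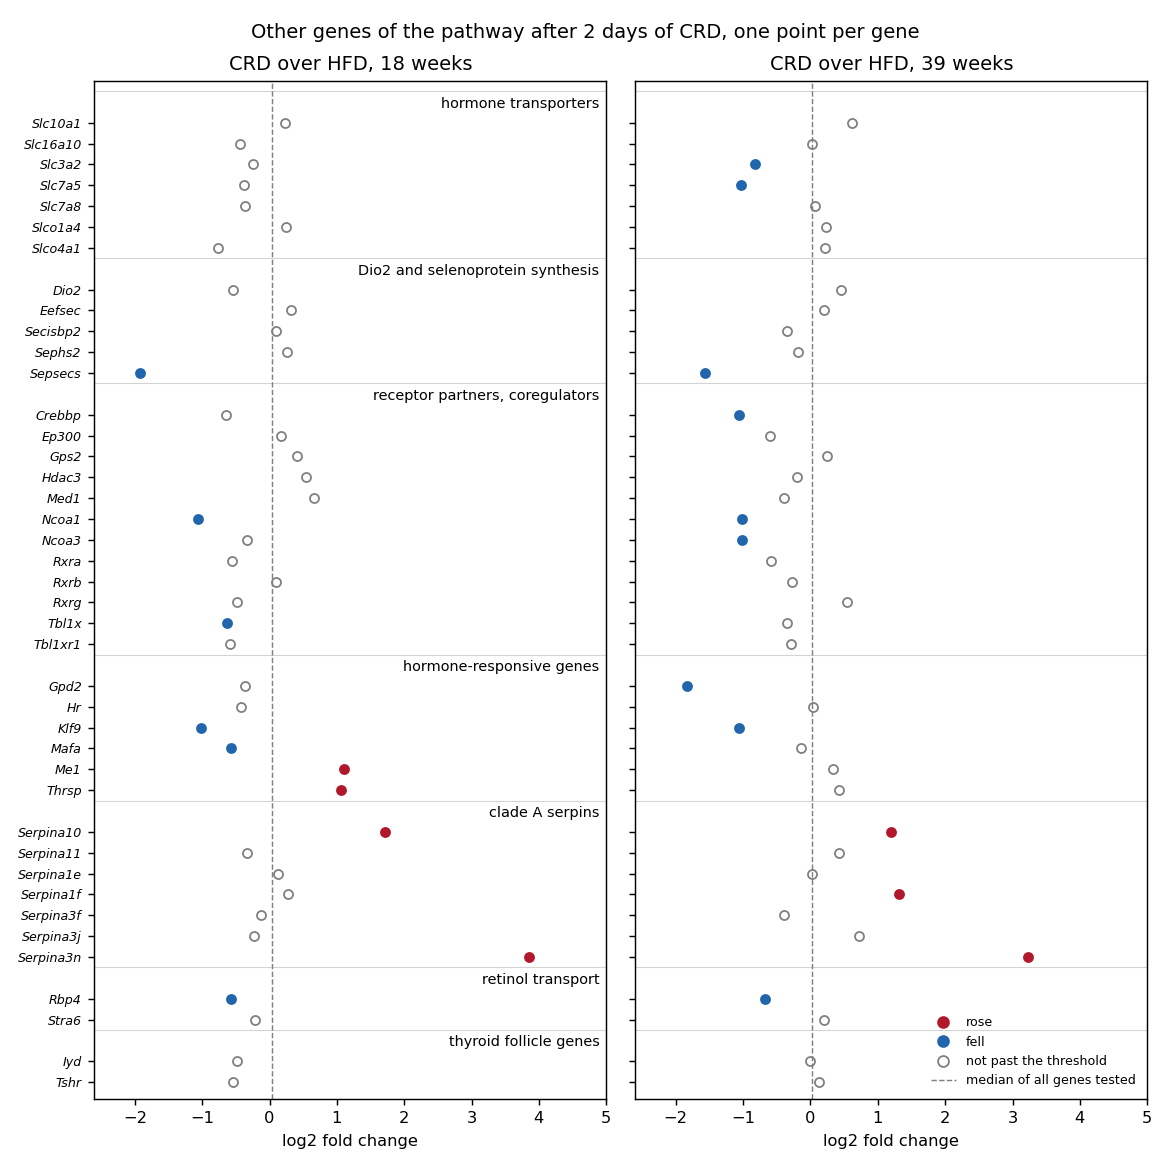
Log2 fold change, CRD over HFD (x axis), of the 41 listed pathway genes that passed the filter (1 row each, grouped by list) at 18 and at 39 weeks; filled points passed an adjusted p of 0.05 and the dashed line is the median of all genes tested. Genes that fell at both ages are Sepsecs, Ncoa1, Klf9 and Rbp4, and genes that rose at both are Serpina3n and Serpina10. Serpina3n passed the filter only through its CRD arrays.

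The genes whose profiles lay nearest to those of the 2 carriers were found by the root mean square difference between log2 profiles over the 20 arrays, each centred on its own mean, among 15063 genes. For Serpina7, whose own profile had a root mean square of 2.56, they were Cenpa (0.661), Cdca3 (0.674), Plk1 (0.709), Cdc20 (0.730) and Cdk1 (0.766). The HFD means of these 5 lay below the filter cut of 4.83 at both ages, so they passed the filter only through their CRD arrays. Plk1, a mitotic kinase, averaged 8.32 ± 0.76 after CRD and 2.88 ± 0.76 on HFD at 18 weeks, and 7.96 ± 0.55 after CRD and 2.65 ± 0.40 on HFD at 39 weeks. For Ttr, with a root mean square of 0.966, they were Tmem160 (0.139), Copz2 (0.168), Clptm1l (0.191), Ntrk2 (0.201) and Tmem208 (0.216). Tmem160 averaged 12.54 ± 0.25 after CRD and 10.60 ± 0.28 on HFD at 18 weeks, and 12.00 ± 0.27 after CRD and 10.50 ± 0.16 on HFD at 39 weeks. These genes were picked for their likeness to Serpina7 and Ttr, so their CRD differences are a description.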

How the data were processed

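Islet RNA was labelled with Cy3 and measured on 20 one-colour Agilent arrays, and the submitters' processing notes name Agilent Feature Extraction 11. The authors deposited a linear intensity for each of 59448 probes on each array. All 20 columns of the deposited intensities held the same sorted values, so they had been quantile normalized; the sources used here do not describe the background correction. First strands were primed with oligo-dT alone or mixed with random primers, per the labels' protocols, which do not assign either to an array.

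From the deposited values log2 intensities were taken. A single gene symbol was listed for 30010 probes, several for 0 and none for 29438. The identifiers of all 30010 were found in RefSeq (GRCm38.p6), which was used for names, neighbours and promoter sequence. The probe of highest mean stood for the 3324 genes with over 1 probe. The lowest 30% of the 26159 genes by mean (log2 below 4.83) were left out, leaving 18311. The 4 group means were fitted over the 20 arrays with limma 3.58.1 (lmFit, eBayes; R 4.3.3), p-values were adjusted by Benjamini-Hochberg over those genes, and the fit was tested on simulated data first. The number of arrays limits the precision.

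The 6 genes, the lists and the tests were chosen with earlier results of these data known. Named besides the 6 were, per list, up to 4 genes past the threshold in a CRD comparison with the largest mean change (otherwise 1 or 2 of highest level), the 5 nearest profiles of Serpina7 and of Ttr (without predicted and clone names), Nr1d1, Nr1d2 and the islet hormones. Listed genes with no named probe are not analysed here. The array sets came from average-linkage clustering on 1315 chemosensory receptor genes, cut at a fixed number of 3. On those same genes, correlations were 0.925 to 0.978 within and 0.847 to 0.916 between sets. Alternatives were an offset of 16, no filter, the mean of a gene's probes, the array set as a block, set A alone, the replicate number as a block, and each array left out. Counts of pathway genes under these were added after the data were seen.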

Additional observations from a re-analysis of the deposited data

Results flagged for a closer look

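Of 24 sets of 5 arrays (6 genes in 4 groups), 2 held an array whose gap to its neighbour, divided by the range of the group, exceeded Dixon's critical value of 0.71, where chance flags about 1 in 20. Both were replicate 2 of the 18-week CRD group, the only array of that group in set A. Ttr had 13.98 there, below the next value of 14.46 (ratio 0.720), and Dio1 had 11.33, below the next value of 12.25 (ratio 0.756). The same array was also the lowest of its group for Serpina7, Thra and Thrb. Array set and the low values of this array cannot be told apart.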

How the results depend on the processing

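The 32 results were recomputed under 832 alternatives, and 771 kept their direction and their side of the threshold (for values with no test, stayed within 1 SD). The direction turned in 24 of the other 61, all in comparisons between the ages or in the difference of the CRD effects and none past the threshold in either fit; the cause of these changes was not tested. With array set blocked the age difference after CRD turned to 0.080 for Thra, 0.041 for Thrb and 0.15 for Dio1, and the difference of the CRD effects to 0.040 for Serpina7, 0.011 for Thra, 0.17 for Thrb and 0.013 for Dio1. In set A alone the age difference after CRD was 0.43 for Serpina7, 0.37 for Thra, 0.34 for Thrb and 0.15 for Dio1, that on HFD -0.034 for Thra, and the difference of the CRD effects 0.56 for Serpina7, 0.41 for Thra and 0.62 for Thrb. For Serpina7 the 18-week CRD difference was 4.70 with the mean of its probes, 4.79 with array set blocked and 4.31 in set A alone, and for Ttr it was 1.67 and 1.65 in those last 2 settings. Thrb passed at 18 weeks with array set blocked (-0.74); at 39 weeks it lost its call with the offset (-0.56, adjusted p = 0.0512), without the filter (-0.68, adjusted p = 0.0561) and in set A alone (-0.47). Dio1 at 18 weeks lost its call with array set blocked (0.53) and in set A alone (0.59). Crym moved to 0.94 at 18 weeks with the offset, to -0.060 between the ages after CRD with array set blocked, and in the difference of its CRD effects to -0.60 with the offset and -0.65 with the block. Leaving out 1 array at a time, the age difference on HFD ranged from -0.20 to 0.078 for Serpina7, from -0.052 to 0.11 for Thra and from -0.020 to 0.48 for Dio1. That after CRD ranged from -1.08 to -0.62 for Serpina7, from -0.79 to -0.57 for Ttr, from -0.22 to 0.016 for Thra, from -0.57 to -0.29 for Thrb and from -0.87 to -0.57 for Dio1, the Thrb difference at 39 weeks from -0.77 to -0.55, and the count of pathway genes called at 18 weeks from 8 to 18. In set A alone, 1 pathway gene passed at 18 weeks and 6 at 39 weeks, against 10 and 12 on all arrays; its 18-week CRD arm is 1 array, assumed to vary like the other groups. Over all genes, 4565 passed at 18 weeks, 2355 with array set blocked and 180 in set A alone; at 39 weeks 1528 passed, and 2799 and 647 in those settings. Without the filter 0 genes passed between the ages on HFD and 160 after CRD, against 17 and 5 with it, and blocking by array set gave 167 and 0.

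Arrays of the same replicate number in different groups were compared. Of 30 pairs, 10 had a correlation over 0.1 between their deviations, with a range of -0.85 to 0.862. Some numbers in the sample titles recur across groups at other replicate numbers. Pairs by those numbers were not tried, so these values do not settle whether the arrays were paired. With the replicate number as a block the Thrb difference at 39 weeks stayed at -0.68 but lost its call (adjusted p = 0.0892), no other call of the 6 genes changed, and 3210 genes passed at 18 weeks and 1004 at 39 weeks. Background signal and detection are unknown, so the levels of dim genes such as Crym are the least certain.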
